A study of Mus musculus with 9 samples.

Results

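The miR-101 microRNAs in extracellular vesicles of cultured mouse podocytes were followed across 3 culture media. The identifiers described are mmu-miR-101a-3p, mmu-miR-101a-5p and mmu-miR-101b-3p (below without the prefix for mouse), 3 of the 1915 miRNA identifiers in the tables, taken by name. They were selected on earlier values of these same libraries, the counts across the 3 media, in which miR-101a-3p and miR-101b-3p had stood among the higher miRNAs of high glucose against normal glucose. Their levels and fold changes are therefore given as a description, with no p-value of their own. The vesicles came from the supernatant of a conditionally immortalized podocyte line, a cell line of the epithelium that wraps the capillaries of the kidney filter, after differentiation for 10 days. Cells were then kept for 48 h in high glucose (30 mM), in mannitol (5.3 mM glucose with 24.7 mM of this sugar alcohol, which matches the osmolality of high glucose), or in normal glucose (5.3 mM). Each medium had 3 small RNA libraries, and all 9 come from the same line, grown in medium with fetal bovine serum and recovered with a polymer that precipitates vesicles. Whether that serum was cleared of bovine vesicles is not in the labels, and neither is whether replicate libraries stem from separate cultures, so differences between groups are measured only against the spread between these libraries, which may be technical.

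A microRNA is cut from a hairpin precursor, and 1 of the hairpin's arms is usually loaded into an Argonaute protein while the other is lost. The loaded strand finds its target messages mainly through its seed, bases 2 to 8 counted from its 5′ end. The miR-101 family is conserved among vertebrates and is best known for repressing Ezh2, the histone methyltransferase of the Polycomb repressive complex, and it is counted among the tumour-suppressive miRNAs. In the mouse it has separate copies, Mir101a and Mir101b, with nearly the same 3p arm.

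The hairpins are shown because both arms of each can be compared with the counts; capitals mark the annotated 5p and 3p arms, and the sequences are RefSeq's on build GRCm38.p6, the assembly also called mm10.
Mir101a, chr4:101346945-101347027, minus strand: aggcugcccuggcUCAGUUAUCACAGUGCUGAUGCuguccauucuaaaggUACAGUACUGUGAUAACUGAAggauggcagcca
Mir101b, chr19:29135279-29135375, plus strand: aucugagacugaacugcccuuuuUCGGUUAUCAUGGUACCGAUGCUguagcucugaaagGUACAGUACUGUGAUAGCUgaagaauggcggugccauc
In the GENCODE M21 annotation of this build, Mir101a lies inside an exon of the long noncoding RNA E130102H24Rik on the same strand, at 101346531 to 101347103. Mir101b lies within the gene Rcl1, which encodes a protein of ribosome biogenesis, at 29101375 to 29143929 on the same strand, and outside its annotated exons.

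The mature sequences show how close the identifiers are; here capitals mark bases 2 to 8 of each. Beside the members stand miR-101c, which has the same 7 bases at a start shifted by 1, and miR-144-3p, a product of the erythroid Mir144 locus, which shares bases 2 to 7.
miR-101a-3p: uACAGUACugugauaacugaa
miR-101b-3p: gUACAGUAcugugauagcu
miR-101c: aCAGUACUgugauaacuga
miR-144-3p: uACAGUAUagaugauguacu
miR-101a-5p: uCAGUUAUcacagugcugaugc
As annotated, miR-101b-3p starts 1 base further 5′ than miR-101a-3p, with a G, so that the 7 bases forming the miR-101a-3p seed are its bases 3 to 9. Aligned on those bases, the overlapping 18 bases of the 3p arms differ only by A16G, with positions counted from 1 at the 5′ end of miR-101a-3p, its base given first. The miR-101c sequence, from chr9:3038680-3038698 on the minus strand, lies entirely inside miR-101a-3p, as its bases 2 to 20. A read that ends before base 16 of miR-101a-3p cannot be assigned to a copy, and a read of bases 2 to 20 is both miR-101c and a trimmed miR-101a-3p. Of these sequences miR-144-3p shares bases 2 to 7 with miR-101a-3p and differs from it at base 8.

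The total of miRNA counts ran from 725211 to 2553690 per library, and levels are given as CPM, the count scaled to that total. No count from 1 to 9 occurs in the tables, so a listed 0 stands for 0 to 9 reads. The miR-30 family, known at high levels in podocytes, summed to 15.0% to 22.5% of miRNA counts in high glucose, 10.7% to 17.7% in mannitol and 12.6% to 14.0% in normal glucose. Most of that sum was miR-30a-5p, at a mean of 116618 CPM over all libraries, followed by miR-30d-5p at 36579 CPM. The tables hold no protein marker of podocytes.

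The main product was miR-101a-3p, the arm known to repress Ezh2. It stood at 5164, 10029 and 7692 CPM in the high glucose libraries, at 4136, 8395 and 3374 CPM in the mannitol libraries, and at 4838, 5417 and 3178 CPM in the normal glucose libraries. The means with their SD (n = 3 in each medium, as for all means below) were 7629 ± 2433 CPM in high glucose, 5302 ± 2706 CPM in mannitol and 4478 ± 1162 CPM in normal glucose. The highest value was that of high glucose replicate 2 and the next that of mannitol replicate 2, while the lowest was that of normal glucose replicate 3. The groups overlapped in every comparison, since high glucose replicate 1 lay below normal glucose replicate 2 and mannitol replicate 2 above 2 of the high glucose libraries. By abundance miR-101a-3p ranked between 21st, in high glucose replicate 2, and 48th, in mannitol replicate 3 and normal glucose replicate 3. The counts behind these levels were 3519 to 19644 reads, for which counting error is at most 1.69% of the value, far below the spread between libraries of a group. In order of group means high glucose came first, then mannitol, then normal glucose, and neighbours in that order differed by less than the SD of mannitol.

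The arm from the Rcl1 intron, miR-101b-3p, was several times rarer. Its levels were 916, 1401 and 1266 CPM in high glucose, 681, 1407 and 640 CPM in mannitol, and 761, 766 and 763 CPM in normal glucose. The means were 1194 ± 251 CPM in high glucose, 910 ± 432 CPM in mannitol and 763 ± 2.80 CPM in normal glucose. All 3 high glucose libraries lay above all 3 normal glucose libraries, and mannitol replicate 2 was the highest library of all. Such a separation upward was found for 9 of the 361 miRNAs tested in this comparison (2.49%), and miR-101b-3p was chosen with that comparison known. The spread of 0.367% of the mean in normal glucose was smaller than the counting error of those counts, 2.92% to 3.46% (counts of 1171, 833 and 845), so that it cannot be a measure of replicate error. On the authors' scale, RPM relative to a constant of each library, the separation was absent. There miR-101b-3p had 31.4, 78.2 and 101.4 RPM in high glucose, against 52.9, 34.9 and 37.4 RPM in normal glucose. High glucose replicate 1, the library with the fewest miRNA counts, then lay below all 3 normal glucose libraries.

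The other arm of Mir101a, miR-101a-5p, was listed at 0 in all 9 libraries, as was miR-101b-5p. A listed 0 can hide 9 reads, which allows miR-101a-5p between 0.0458% of the reads of both arms, in high glucose replicate 3, and 0.255%, in normal glucose replicate 3. Among 31 arms with at least 3519 counts in every library, the lowest count of miR-101a-3p, and with a partner arm among the identifiers, 7 partners (22.6%) were at 0 in all 9 libraries, miR-101a-5p among them. No fold change can be given for this member, and it entered no fit.

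**Figure D1:**
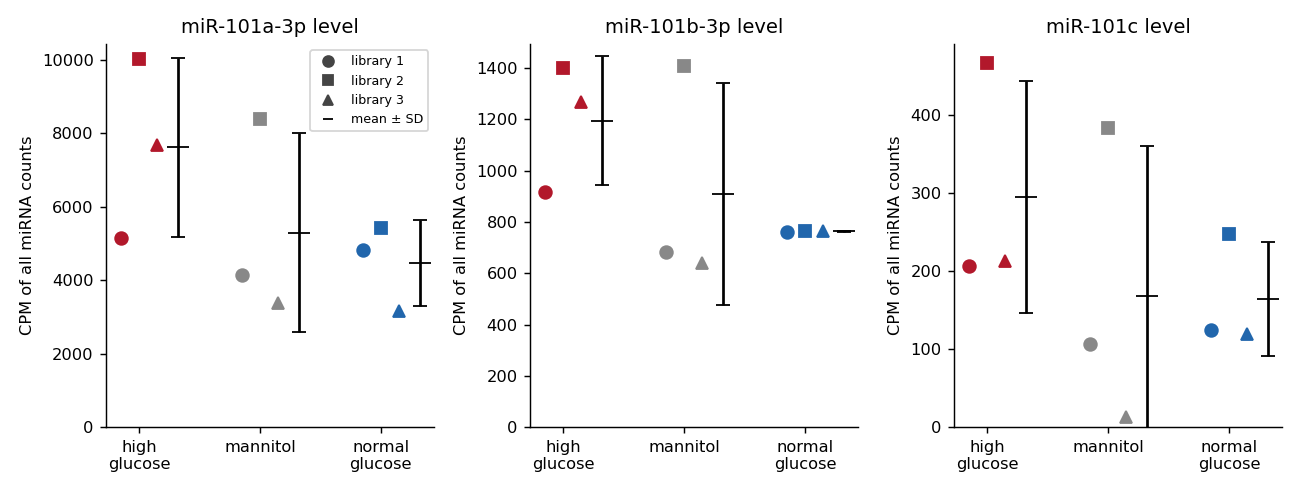
Levels of miR-101a-3p, miR-101b-3p and miR-101c in CPM of all miRNA counts, with 1 point per library (shapes give the library number of the titles) and bars of mean ± SD (n = 3; the mannitol bar of miR-101c is clipped at 0). The high glucose means of miR-101a-3p, 7629 CPM, and of miR-101b-3p, 1194 CPM, are the highest of the groups, and within mannitol, replicate 2 stands above the other libraries in each panel.

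Within a library miR-101a-3p had 4.16 to 7.16 times the count of miR-101b-3p. The count of miR-101a-3p divided by that of miR-101b-3p was 5.64, 7.16 and 6.08 in high glucose, 6.07, 5.97 and 5.27 in mannitol, and 6.36, 7.07 and 4.16 in normal glucose. Its means were 6.29 ± 0.781 in high glucose, 5.77 ± 0.432 in mannitol and 5.86 ± 1.51 in normal glucose. The groups overlapped throughout, and the differences between means were smaller than the SD of normal glucose. This ratio does not depend on how a library is scaled. The lowest ratio, in normal glucose replicate 3, corresponds to 80.6% of the reads of both identifiers (exact binomial 95% interval 79.4% to 81.8%, counting error only), and the highest, in high glucose replicate 2, to 87.7% (87.2% to 88.3%). The libraries therefore differ in the ratio beyond counting error, but not in step with the medium. Since the ligation of adapters favours some ends over others, a ratio between miRNAs is one of reads and not of molecules.

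The nested identifier miR-101c was rarer still. It had 207, 467 and 213 CPM in high glucose, 107, 383 and 13.2 CPM in mannitol, and 125, 248 and 120 CPM in normal glucose. As a share of miR-101c and miR-101a-3p counts together it was 3.85%, 4.45% and 2.69% in high glucose, 2.52%, 4.37% and 0.390% in mannitol, and 2.53%, 4.38% and 3.64% in normal glucose. Mannitol replicate 3 stood apart, with 30 miR-101c counts beside 7658 of miR-101a-3p (exact binomial 95% interval of the share 0.263% to 0.557%, counting error only). In each medium the library numbered 2 had the highest share, between 4.37% and 4.45%. The erythroid relative miR-144-3p was listed in mannitol replicate 2 alone, at 11 counts.

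**Figure D2:**
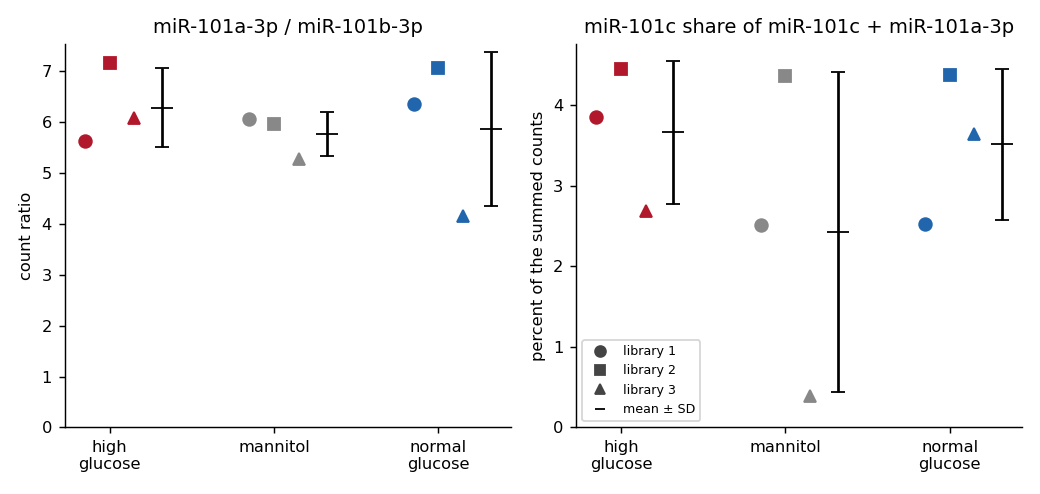
The count ratio of miR-101a-3p to miR-101b-3p and the share of miR-101c in the summed miR-101c and miR-101a-3p counts, with 1 point per library and mean ± SD (n = 3). The ratio lies between 4.16 and 7.16 with all groups overlapping, and the miR-101c share drops to 0.390% in mannitol replicate 3.

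The first comparison, high glucose against normal glucose, asks how the medium as a whole relates to the vesicle miRNAs. The fitted log2 fold change was 0.87 for miR-101a-3p (SE 0.42, 95% interval -0.03 to 1.76) and 0.76 for miR-101b-3p (SE 0.38, 95% interval -0.04 to 1.56). Both intervals include 0 in this fit, which takes the libraries as unpaired. With the titles' numbers as a replicate block the values were 0.85 (95% interval 0.24 to 1.46) for miR-101a-3p and 0.71 (95% interval 0.12 to 1.30) for miR-101b-3p, and those intervals lie above 0, for miRNAs chosen on this comparison. In the block fit 19 of 361 miRNAs had an unadjusted p under 0.05 by edgeR's quasi-likelihood test, in either direction. After adjustment 0 passed there. The unpaired values correspond to 1.82-fold and 1.69-fold, and they ranked 20th and 27th from the highest of 361 tested miRNAs, whose median was -0.04. Of the 9 pairs of a high glucose and a normal glucose library, miR-101a-3p was higher in high glucose in 8 and miR-101b-3p in 9. The share of all tested miRNAs higher in 8 of 9 pairs is not given here. With edgeR's quasi-likelihood test 0 of 361 miRNAs (0%) passed a Benjamini-Hochberg adjusted p of 0.05 in this comparison, the members included. At an unadjusted p under 0.05 edgeR had 10 miRNAs. The same count was 15 with DESeq2 and 6 with limma-voom, and both called 0 after adjustment. Without high glucose replicate 2 the value of miR-101a-3p was 0.57, and without normal glucose replicate 3 it was 0.60.

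Against mannitol, high glucose is set at equal osmolality. This comparison shares its high glucose libraries with the one above. The log2 fold change was 0.67 for miR-101a-3p (SE 0.42, 95% interval -0.22 to 1.57) and 0.53 for miR-101b-3p (SE 0.37, 95% interval -0.27 to 1.33). With the replicate block they were 0.76 (95% interval 0.16 to 1.37) and 0.61 (95% interval 0.02 to 1.20). Those intervals lie above 0, but for miRNAs chosen on values of these same high glucose libraries, so they are no test. In that fit 0 of 361 miRNAs passed the adjusted threshold in this comparison. At an unadjusted p under 0.05 by edgeR's test the block fit had 52 of 361, in either direction. Mannitol replicate 2 was as high as the high glucose libraries, and the value depended on it. Without that library the log2 fold changes were 1.32 (SE 0.37) for miR-101a-3p and 1.13 (SE 0.31) for miR-101b-3p. Leaving out another library gave as little as 0.35 for miR-101a-3p, without high glucose replicate 2, and 0.30 for miR-101b-3p, without mannitol replicate 1. Scaled to the authors' library constant in place of the miRNA counts, the values were 0.25 for miR-101a-3p and 0.10 for miR-101b-3p. Between libraries of the same number miR-101a-3p was higher in high glucose in 3 of 3 and miR-101b-3p in 2 of 3. The share of all tested miRNAs with such counts is not given here, so they are a description only. By edgeR 0 of 361 miRNAs (0%) passed, with 19 at an unadjusted p under 0.05. Limma-voom called 0, with 29 at that p, and DESeq2 called 1, miR-182-5p, with 26 at that p.

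The third comparison, mannitol against normal glucose, concerns added osmolality alone, and it shares libraries with both comparisons above. The log2 fold change was 0.19 for miR-101a-3p (SE 0.42, 95% interval -0.70 to 1.09) and 0.23 for miR-101b-3p (SE 0.37, 95% interval -0.57 to 1.02). The intervals are wide enough to hold changes in either direction, and they do not show that mannitol left the miRNAs alone. Without mannitol replicate 2 the values were -0.34 and -0.27, so the sign rested on that library. For miR-101a-3p it was -0.01 without normal glucose replicate 3. Against the authors' library constant the values were 0.62 and 0.66. By edgeR 0 of 361 miRNAs (0%) passed, with 5 at an unadjusted p under 0.05. Both other tools called 0 as well, and 7 miRNAs by DESeq2 and 3 by limma-voom were at that unadjusted p.

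**Figure D3:**
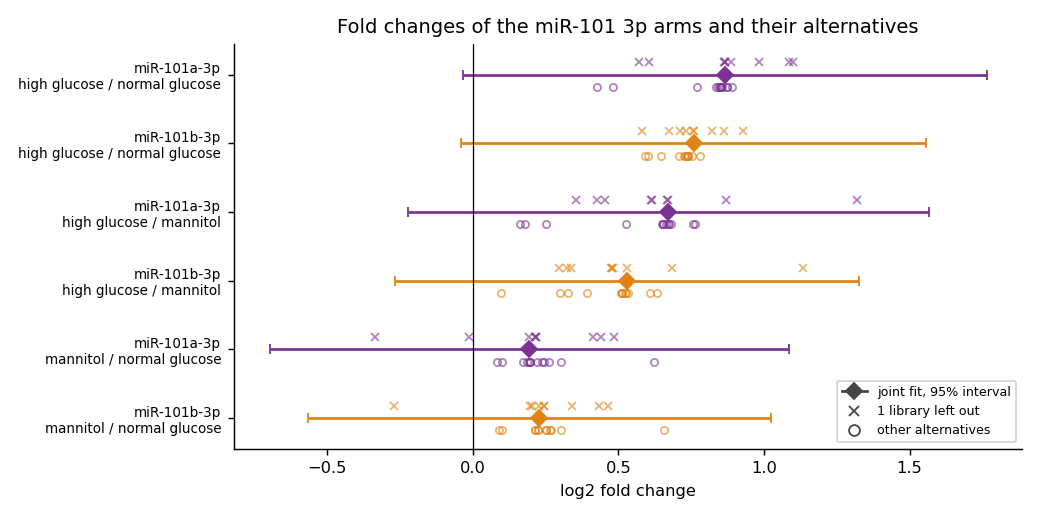
Log2 fold changes of the 3p arms in the comparisons, from the joint edgeR fit with 95% intervals (diamonds), with 1 library left out (crosses) and under the other alternatives (circles). All 6 intervals, of the fit without the replicate block, include 0, and crosses lie below 0 only for mannitol against normal glucose.

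The members are poor in G and C, and fold changes ran with base composition across the tables. RefSeq's mature miR-101a-3p has 33.3% GC and miR-101b-3p, as annotated, 42.1%, while the median was 48.0% over 228 miRNAs that were listed in all 9 libraries and had a sequence. Across those miRNAs, which share the same libraries and scaling, Spearman's rho between GC content and log2 fold change was -0.45 for high glucose against normal glucose, -0.66 for high glucose against mannitol and 0.39 for mannitol against normal glucose. With a trend on GC removed from each library, miR-101a-3p had 0.42 (SE 0.28) for high glucose against normal glucose and 0.16 (SE 0.28) for high glucose against mannitol. In the same setting miR-101b-3p had 0.60 (SE 0.25) against normal glucose and 0.30 (SE 0.25) against mannitol. Only 3.95% of the 228 miRNAs have less GC than miR-101a-3p, so its trend was read near the edge of the range. The SE leaves out error in the trend. With the block and the trend removed together, miR-101a-3p had 0.48 (95% interval -0.07 to 1.03) against normal glucose and 0.18 (95% interval -0.36 to 0.72) against mannitol. In that fit miR-101b-3p had 0.59 (95% interval 0.14 to 1.04) against normal glucose and 0.33 (95% interval -0.12 to 0.77) against mannitol, so that 1 of these 4 intervals lies above 0. It belongs to a miRNA chosen on that very comparison, so it is no test, and 0 of 308 miRNAs passed there in that fit. By edgeR's test 18 of the 308 had an unadjusted p under 0.05 against normal glucose, and 24 against mannitol. The spread of miR-101b-3p in normal glucose, 0.367% of its mean in CPM, was also below counting error. More of the miR-101a-3p difference than of the miR-101b-3p difference went with the trend, and whether base composition has a part in either was tested no further.

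**Figure D4:**
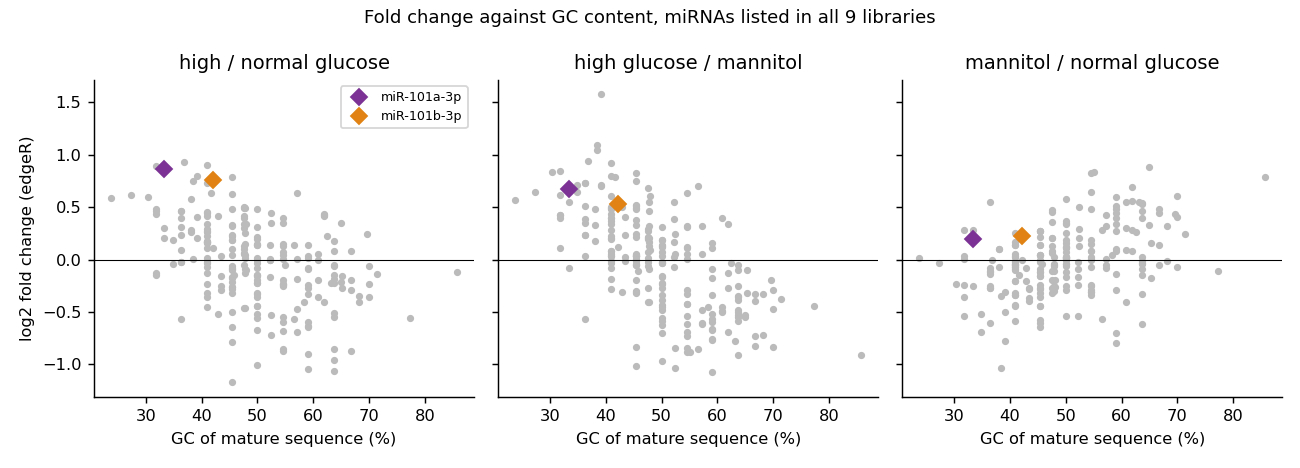
Log2 fold change against the GC content of the mature sequence for miRNAs listed in all 9 libraries (grey points), with the miR-101 3p arms marked. In high glucose against normal glucose and against mannitol the low-GC side holds the higher fold changes, and miR-101a-3p, at 33.3% GC, lies on that side.

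The 3 libraries with the most miR-101a-3p were high glucose replicate 2, mannitol replicate 2 and high glucose replicate 3, and the same 3 led for miR-101b-3p. They were also the 3 with the largest summed miR-30 level, at 22.5% of miRNA counts in high glucose replicate 2, 20.7% in high glucose replicate 3 and 17.7% in mannitol replicate 2. That sum was mostly miR-30a-5p, itself 1 of the 5 miRNAs of most like pattern below. All 5 miR-30 members had a positive log2 fold change in high glucose against normal glucose, beside 168 of all 361 tested miRNAs. The values ran from 0.04 for miR-30c-5p to 0.79 for miR-30a-5p. By edgeR 0 of these 5 passed, and 1 had an unadjusted p under 0.05, beside 10 of 361. Against mannitol all 5 were positive, beside 168 of 361, with 1 at that p, beside 19 of 361. The 3 libraries with the largest miR-30 sums, in the order of those sums, had the 3 smallest sums of blood and liver miRNAs. These were 1.35%, 1.36% and 1.55%, although normal glucose replicate 1 had 1.55% as well. That list of 10 miRNAs, with the identical counts of miR-486a-5p and miR-486b-5p summed once, ran from 13495 to 25642 CPM in high glucose, 15507 to 33520 CPM in mannitol and 15523 to 30463 CPM in normal glucose. Its sum was mostly the liver miRNA miR-122-5p, at a mean of 13668 CPM in high glucose, 17046 CPM in mannitol and 17097 CPM in normal glucose. Of its erythroid members miR-486a-5p (mean 5879 CPM over all libraries) and miR-451a (226 CPM) were listed in all 9 libraries, and miR-144-3p and miR-144-5p in 1 library each. Of its leukocyte members miR-142a-5p and miR-150-5p were listed in 8 libraries and miR-223-3p in 5, at means of 6.08 to 14.5 CPM, and miR-142a-3p was at 0 in all 9. With the identical pair counted once, 4 of 6 tested members had a negative log2 fold change in high glucose against normal glucose and 4 of 6 against mannitol, beside 193 of all 361 tested miRNAs in each comparison. By edgeR 0 of them passed, and at an unadjusted p under 0.05 there were 0 against normal glucose, beside 10 of 361, and 1 against mannitol, miR-486a-5p, beside 19 of 361. In bulk vesicle RNA, fewer vesicles of 1 source and less of a miRNA per vesicle cannot be told apart, and the part of this mixture in the miR-101 values was not tested.

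Other miRNAs known to repress Ezh2 had values of both signs. Of 10 such miRNAs 9 were tested, and 0 passed in edgeR in any comparison, with 0 at an unadjusted p under 0.05. In high glucose against normal glucose 3 had a positive and 6 a negative log2 fold change, with a median of -0.24 beside -0.04 for all tested miRNAs, of which 168 of 361 were positive. The negative side was mostly let-7: let-7a-5p (-0.57), let-7b-5p (-0.64), let-7c-5p (-0.32) and let-7e-5p (-0.45), with miR-98-5p (-0.13) and miR-124-3p (-0.24). The positive values were those of miR-26a-5p (0.22), miR-26b-5p (0.30) and miR-214-3p (0.03). In high glucose against mannitol 4 of the 9 were positive and 5 negative, with a median of -0.01, beside 168 of 361 positive and a median of -0.04 for all tested miRNAs. In mannitol against normal glucose 3 were positive and 6 negative, with a median of -0.24, beside 188 of 361 positive and a median of 0.01 for all. The most abundant, let-7c-5p, averaged 16361 ± 3327 CPM in high glucose, 22224 ± 5142 CPM in mannitol and 21353 ± 4032 CPM in normal glucose. Next came let-7b-5p, at 9724 ± 2171 CPM in high glucose, 13656 ± 3572 CPM in mannitol and 15679 ± 5226 CPM in normal glucose. The let-7 miRNAs are known for restraining growth and Lin28-dependent programmes.

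The pattern most like that of miR-101a-3p was that of miR-101b-3p. Likeness was measured over the 9 libraries by the SD of the log2 ratio of the counts, which no scaling of the libraries changes. That SD was 0.24 for miR-101b-3p, smaller than for any of the other 160 miRNAs listed in all libraries at a mean of at least 100 CPM, whose median was 0.73. The reads of the copies share 15 bases from the 5′ end of miR-101a-3p, and how reads that end within them were assigned is not stated, so the part of read assignment in this likeness was not tested. Next came miR-34c-5p, a p53-regulated miRNA, at 0.27, miR-542-3p at 0.31 and the podocyte-abundant miR-30a-5p at 0.32. They were followed by miR-378c at 0.34 and let-7i-5p at 0.35. The level of miR-34c-5p was 2404 ± 762 CPM in high glucose, 1916 ± 1394 CPM in mannitol and 1658 ± 72.4 CPM in normal glucose. That of miR-542-3p was 368 ± 159 CPM in high glucose, 267 ± 136 CPM in mannitol and 217 ± 36.5 CPM in normal glucose, with 31.8% GC. All 5 had a positive log2 fold change in high glucose against normal glucose, between 0.27 for let-7i-5p and 0.89 for miR-542-3p, which follows in part from the choice of like patterns.

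**Figure D5:**
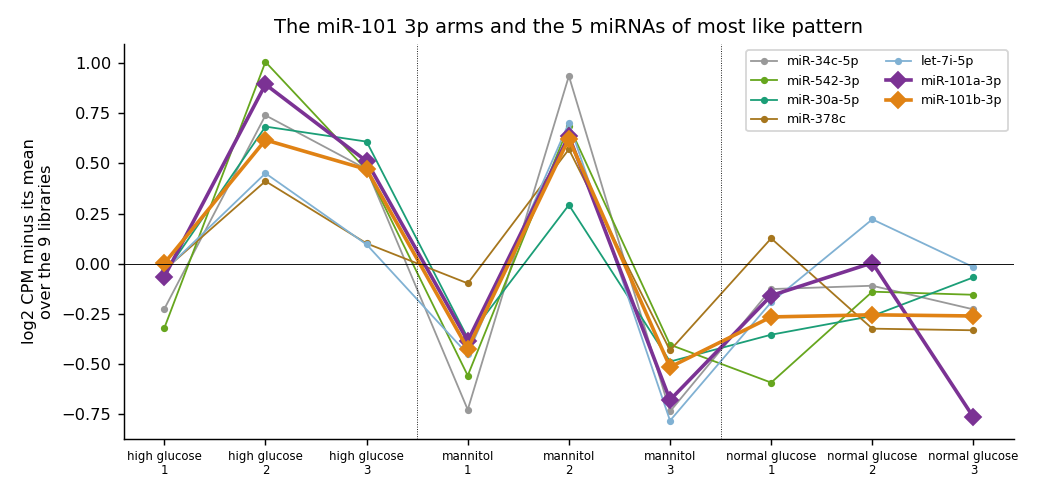
Log2 CPM of the miR-101 3p arms (thick lines) and of the 5 miRNAs of most like pattern, each minus its own mean over the 9 libraries, in the order high glucose, mannitol, normal glucose. The lines share their peaks in high glucose replicates 2 and 3 and mannitol replicate 2, and miR-101a-3p leaves the others in normal glucose replicate 3, where the ratio to miR-101b-3p is 4.16.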

How the data were processed

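Small RNA was counted in 9 libraries, for each of which 1915 mouse identifiers are tabulated. Per the file headers, these are total counts, which the authors deposited as whole numbers and which were used as they stand. Beside them the authors deposited a normalized column, which by its values holds RPM, the count scaled to 1 constant per library. No source used here states what the constant stands for, and the miRNA counts were 3.43% to 9.71% of it. The submitters' processing notes name bcl2fastq, BWA and build mm10, and how reads matching several miRNAs were counted is not given there. Groups follow the treatment label, and the first title of each group, which has no number, was taken as replicate 1. No pair of libraries in a group had the same counts, with chi-square per degree of freedom of 74.8 to 645.

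The fold changes are those of edgeR 4.0.16, run in R 4.3.3 (TMM scaling, expression filtering by group, robust quasi-likelihood test, all 9 libraries in a joint fit), with Benjamini-Hochberg adjustment over 361 miRNAs. The script was tested on simulated data. Alternatives used DESeq2 1.42.0, limma 3.58.1 (voom), other scalings and filters, zeros set to 9 reads, a GC trend removed by lowess for the 308 of 361 tested miRNAs with a RefSeq sequence, a replicate block, and each library left out. The replicate block takes the titles' numbers as pairing libraries in a joint fit of all 9, so mannitol and normal glucose are paired in it too. Deviations from the group means of same-numbered libraries correlated at 0.197 to 0.316 (high against normal glucose) and 0.169 to 0.521 (high glucose against mannitol). For mannitol against normal glucose the correlation was -0.058 to 0.229, which does not bear the pairing out there. The pairing rests on the numbers and on these correlations alone, which come from the same counts. The members and lists were chosen with earlier results of these data known. Named miRNAs were the members, their relatives by seed (the same bases 2 to 8 or 2 to 7, or the same 7 bases shifted by 1), the 2 most abundant Ezh2-repressing miRNAs (none passed) and the 5 of most like pattern; miR-122-5p, miR-451a, miR-150-5p, miR-223-3p, the miR-486, miR-142a and miR-144 arms, miR-101b-5p and miRNAs called in an alternative were named after their values were seen.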

Additional observations from a re-analysis of the deposited data

How the results depend on the processing

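In high glucose against normal glucose miR-101a-3p had log2 fold changes of 0.42 to 0.89 over 13 alternatives other than a left-out library (12 for miR-101b-3p) and 0.57 to 1.10 with 1 left out, and miR-101b-3p 0.59 to 0.78 and 0.58 to 0.93. In high glucose against mannitol miR-101a-3p had 0.16 to 0.76 over the alternatives and 0.35 to 1.32 with 1 library left out. There miR-101b-3p had 0.10 (scaled to the library constant) to 0.63, and 0.30 to 1.13. In mannitol against normal glucose miR-101a-3p had 0.08 to 0.62, and -0.34 (without mannitol replicate 2) to 0.49, with -0.01 without normal glucose replicate 3. There miR-101b-3p had 0.09 to 0.66 (scaled to the library constant), and -0.27 (without mannitol replicate 2) to 0.46. The cause was not tested.

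Without the expression filter edgeR called 2 miRNAs in high glucose against normal glucose (miR-9-5p and miR-6538), 3 against mannitol (miR-1a-3p, miR-19b-3p and miR-6538) and 1 in mannitol against normal glucose (miR-1a-3p). In high glucose against mannitol DESeq2 called 1, and with a library left out edgeR called 0 to 1, the 1 being miR-19b-3p without mannitol replicate 2. No member was called in any alternative run. With the replicate block, pairing libraries of the same number, miR-101a-3p had 0.85 (SE 0.29) in high glucose against normal glucose, 0.76 (SE 0.29) against mannitol and 0.08 (SE 0.28) in mannitol against normal glucose, and no count of calls changed. Adding the miR-101c counts to miR-101a-3p, chosen after seeing the data, left 0.87 in the first comparison. By Pearson's correlation of log2 CPM 4 of the 5 miRNAs of most like pattern stayed, without let-7i-5p.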
